A study of Mus musculus with 20 samples.

Results

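The variable (V) gene segments of the immunoglobulin loci were examined in the cecum of mice fed increasing levels of raw potato starch (RPS). Members were all genes of the deposited count table whose GENCODE symbol begins with Ighv (heavy chain), Igkv (kappa light chain) or Iglv (lambda light chain), which gave 209 of 19887 genes. These were 107 Ighv segments on chromosome 12, 99 Igkv segments on chromosome 6 and 3 Iglv segments on chromosome 16 of the mouse genome build GRCm39. RNA from whole cecum tissue of 20 C57BL/6 mice was sequenced as single-end reads of 50 bases. All 20 mice, the controls included, ate the Total Western Diet (TWD), a rodent diet modelled on American nutrient intake, for 6 weeks from 3 weeks of age. They then ate TWD with 0, 2, 5 or 10% RPS by weight for 3 weeks, with 5 mice per diet, and the 0% RPS diet was TWD alone. The question addressed here was whether the amount of V segment RNA, the number of segments detected and the evenness of their use differed between diets.

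A B cell builds each antibody chain by joining a V segment to joining segments, and in the heavy chain also to a diversity segment, so the V segment RNA of a tissue samples the clones of antibody-producing cells it holds. Plasma cells carry far more antibody RNA than resting B cells, and in the intestine most of them make IgA, which is carried across the epithelium into the lumen. The cecum wall also contains lymphoid follicles with resting and germinal centre B cells. In RNA from bulk tissue, fewer cells of a type and less RNA per cell cannot be told apart.

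The 209 segments took 137068 counts over the 20 mice, which was 0.0231% of all counts. Total counts per mouse ranged from 14967798 to 42687283, and V segment counts from 1817 to 12271. In all, 3 members had no count in any mouse, namely Ighv11-1, Ighv1-72 and Igkv8-26. Another 6 segments were counted in 1 mouse only, namely Ighv8-4, Ighv1-62-3, Ighv8-11, Ighv1-71, Ighv8-13 and Igkv1-35. At the other end, 64 segments had a count in all 20 mice, 28 of them Ighv, 33 Igkv and 3 Iglv. The filter on low counts kept 130 segments for testing (64 Ighv, 63 Igkv and 3 Iglv) and left 79 out. A count of 0 allows a level of up to 3 counts, which was 0.0703 to 0.2 CPM, that is counts per 1000000 counts of the mouse, depending on the mouse, and such limits cover counting error only. The summed levels of all V segments and of a locus are given on that scale. The CPM of single genes and of summed markers is per 1000000 of the library size scaled by TMM, a normalization between libraries, so the values of single segments do not add up to those sums.

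Sequences of the segments that the results below turn on are shown first, read from GRCm39 in the direction of transcription. V promoters are known for an octamer that binds Oct transcription factors and their B cell coactivator. The octamer ATGCAAAT or its reverse complement ATTTGCAT was searched in the 300 bases from 250 before to 50 after each annotated gene start. It was present at 164 of 209 V segments (78.5%), compared with 308 of 19618 other genes in windows of the same length (1.57%). All 89 Ighv matches read ATGCAAAT, whereas all 72 Igkv matches and all 3 Iglv matches read ATTTGCAT, and 2 of the Igkv windows held both. The stretches below run from 25 bases before the octamer, in capitals, to 10 bases past the annotated gene start. They are from the kappa and heavy chain segments with the highest mean level per length (Igkv10-96 and Ighv9-3), from the segments that passed the trend test (Igkv3-5 and Ighv1-5) and from the most abundant lambda segment (Iglv1).
Igkv10-96 (chr6:68609417-68609532, minus strand): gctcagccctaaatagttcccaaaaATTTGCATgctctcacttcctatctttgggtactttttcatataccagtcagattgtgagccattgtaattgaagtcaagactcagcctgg
Igkv3-5 (chr6:70640164-70640268, plus strand): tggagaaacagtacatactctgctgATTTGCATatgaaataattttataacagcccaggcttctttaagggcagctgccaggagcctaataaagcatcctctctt
Ighv9-3 (chr12:114104733-114104877, minus strand): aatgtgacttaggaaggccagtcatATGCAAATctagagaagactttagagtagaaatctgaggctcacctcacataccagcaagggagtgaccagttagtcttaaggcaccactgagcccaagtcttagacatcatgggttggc
Ighv1-5 (chr12:114477418-114477516, minus strand): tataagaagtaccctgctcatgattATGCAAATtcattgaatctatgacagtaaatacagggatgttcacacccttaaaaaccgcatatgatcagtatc
Iglv1 (chr16:18904241-18904340, minus strand): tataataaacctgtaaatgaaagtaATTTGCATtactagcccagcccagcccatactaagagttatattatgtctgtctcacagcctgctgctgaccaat

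A recombination signal follows each V exon, where the RAG recombinase cuts. It consists of a heptamer (canonical letters CACAGTG), a spacer and a nonamer (canonical letters ACAAAAACC). The heptamer began directly at the annotated end of the V exon in its canonical form in 77 of 107 Ighv and 87 of 99 Igkv segments and in none of the 3 Iglv segments. The best-matching nonamer lay after a spacer of 12 bases in 98 Igkv segments and of 22 or 23 bases in 100 Ighv segments and all 3 Iglv segments. The last 20 bases of the V exon are given with this signal, heptamer and nonamer in capitals. Ighv7-3 is added as a heavy chain segment with a spacer of 23 bases.
Igkv10-96 (chr6:68608919-68608966, minus strand): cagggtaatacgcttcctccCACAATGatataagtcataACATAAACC
Igkv3-5 (chr6:70640860-70640907, plus strand): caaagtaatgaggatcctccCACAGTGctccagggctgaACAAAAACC
Ighv9-3 (chr12:114104274-114104331, minus strand): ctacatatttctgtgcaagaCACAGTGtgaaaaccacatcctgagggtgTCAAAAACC
Ighv1-5 (chr12:114476912-114476969, minus strand): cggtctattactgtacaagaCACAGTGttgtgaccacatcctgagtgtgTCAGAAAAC
Ighv7-3 (chr12:114116761-114116819, minus strand): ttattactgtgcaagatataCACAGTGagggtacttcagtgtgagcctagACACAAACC
Iglv1 (chr16:18903728-18903786, minus strand): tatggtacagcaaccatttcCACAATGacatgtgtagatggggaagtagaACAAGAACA
The heavy chain segments with the canonical heptamer held 92.3% of Ighv counts, with a median of 1.94 CPM per kb of exon against 0.20 for the 30 without it. In kappa the 87 segments with it held 73.8% of counts, and their median of 1.26 CPM per kb was below the 3.33 of the 12 without. Those 12 included Igkv10-96 (heptamer CACAATG) and Igkv6-15 (CACAGTA), which were the kappa segments with the highest levels per length.

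V segments resemble each other, so a short read cannot always be assigned. The V exon was at least 95% identical to that of another counted segment in 100 of 209 members, with a median identity of 94.6%. Of all 50-base windows in a transcript, a median of 77.7% occurred in no other V segment, and the share was under 50% in 27 segments. The 2 pairs of segments below are closest relatives, shown because reads of Igkv10-96 and Igkv3-5 carry results below, with the differing bases in capitals. The V exons of Igkv10-96 and Igkv10-94 differed at 16 of 298 bases (94.6% identity), with more of the capitals toward the 3′ end. Those of Igkv3-5 and Igkv3-10 differed at 6 bases, all within the last 300 of 310 bases shown. The capitals mark the only places where reads could distinguish the members of a pair within these exons.
Igkv10-96 (chr6:68608947-68609244, minus strand): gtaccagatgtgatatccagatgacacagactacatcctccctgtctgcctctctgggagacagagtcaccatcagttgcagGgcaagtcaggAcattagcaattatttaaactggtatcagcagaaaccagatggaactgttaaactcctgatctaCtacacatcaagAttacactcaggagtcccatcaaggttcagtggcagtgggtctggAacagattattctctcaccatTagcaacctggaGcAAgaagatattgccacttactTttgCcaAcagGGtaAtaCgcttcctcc
Igkv10-94 (chr6:68681492-68681789, minus strand): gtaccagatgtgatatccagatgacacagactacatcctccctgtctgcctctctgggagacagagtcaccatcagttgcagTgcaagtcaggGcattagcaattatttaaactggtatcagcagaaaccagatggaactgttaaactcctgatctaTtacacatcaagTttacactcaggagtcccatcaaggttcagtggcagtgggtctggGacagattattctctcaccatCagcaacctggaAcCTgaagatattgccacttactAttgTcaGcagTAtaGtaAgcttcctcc
Igkv3-5 (chr6:70640580-70640879, plus strand): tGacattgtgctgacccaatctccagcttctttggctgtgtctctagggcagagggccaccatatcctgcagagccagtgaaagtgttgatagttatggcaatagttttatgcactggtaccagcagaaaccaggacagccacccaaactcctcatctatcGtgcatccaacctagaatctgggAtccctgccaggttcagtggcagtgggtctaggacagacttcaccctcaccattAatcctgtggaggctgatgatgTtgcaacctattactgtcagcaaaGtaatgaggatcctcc
Igkv3-10 (chr6:70549915-70550214, plus strand): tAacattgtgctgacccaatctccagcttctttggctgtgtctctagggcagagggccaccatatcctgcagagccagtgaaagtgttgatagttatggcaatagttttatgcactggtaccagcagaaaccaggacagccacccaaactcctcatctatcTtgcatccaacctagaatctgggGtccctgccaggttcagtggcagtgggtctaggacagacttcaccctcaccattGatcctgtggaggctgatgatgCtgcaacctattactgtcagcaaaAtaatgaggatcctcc

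V segment RNA varied over 10.8-fold between mice. In mice 1 to 5 on 0% RPS, the summed level was 357, 350, 75.9, 105 and 47.7 CPM. It was 117, 79.6, 341, 131 and 166 CPM on 2% RPS. On 5% RPS it was 210, 355, 232, 269 and 516 CPM. On 10% RPS it was 340, 236, 275, 230 and 290 CPM. All 10 mice on 5 or 10% RPS thus lay above the 0% RPS median, yet every RPS diet overlapped with 0% RPS, with 2 control mice at 350 and 357 CPM and 3 at 105 CPM or below. The mean ± SD was 187 ± 153 CPM for 0% RPS, 167 ± 102 for 2%, 316 ± 125 for 5% and 274 ± 44.5 for 10% (n = 5 each), giving ratios to 0% RPS of 0.894, 1.69 and 1.47. On the log2 scale the mean differences from 0% RPS were 0.11 for 2%, 1.13 for 5% and 0.99 for 10%, so the direction at 2% RPS turned with the scale. The spread was widest without RPS, with a coefficient of variation of 81.9%, and narrowest at 10% RPS, with 16.2%. No test was applied to these sums, since they are scores over the members.

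**Figure D1:**
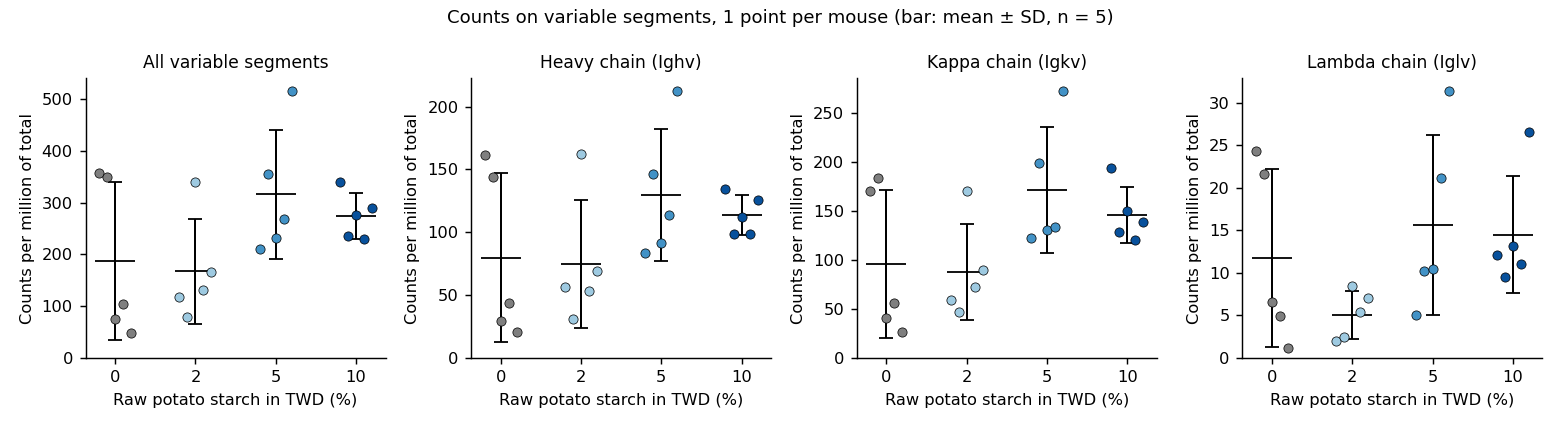
CPM on all variable segments and on the heavy, kappa and lambda segments, with 1 point per mouse and bars for mean ± SD (n = 5) over the percentage of RPS in TWD. The 0% RPS mice fall into 2 near 350 CPM and 3 between 47.7 and 105 CPM, while the 10% RPS mice lie between 230 and 340 CPM.

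Each of the 3 loci was lowest in mouse 5 on 0% RPS and highest in mouse 5 on 5% RPS. Heavy chain segments averaged 79.8 ± 67.6 CPM on 0% RPS, 74.4 ± 50.8 on 2%, 129 ± 52.5 on 5% and 114 ± 16 on 10%. Kappa segments averaged 95.4 ± 75.7, 87.6 ± 49.1, 171 ± 64.2 and 146 ± 28.6 CPM. The heavy chain share of V counts stayed between 38.3 and 48.3% in all 20 mice. Lambda segments made up 9.85 ± 3.90% of light chain V counts on 0% RPS, 5.44 ± 1.66% on 2%, 8.04 ± 3.98% on 5% and 9.06 ± 4.04% on 10%. The lambda share was lowest in mouse 1 on 2% RPS (3.23%) and highest in mouse 5 on 10% RPS (16.1%), and the diets overlapped. All 5 mice on 2% RPS were below the 0% RPS median of 10.5%.

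More segments were detected on 5 and 10% RPS when all mice were brought to the same depth. A segment was counted as detected with at least 3 counts after thinning to the smallest library of 14967798 counts. The expected number was 119, 124, 81.7, 93.7 and 53.2 in the 0% RPS mice and 97.7, 74.9, 135, 92.0 and 106 in the 2% RPS mice. It was 110, 114, 126, 124 and 128 on 5% RPS and 135, 109, 135, 126 and 124 on 10% RPS. Of the 10% RPS mice, 4 lay above every 0% RPS mouse, and of the 5% RPS mice 3 did. The mean ± SD was 94.3 ± 28.9, 101 ± 22.1, 120 ± 7.88 and 126 ± 10.6 segments for 0, 2, 5 and 10% RPS. Mouse 5 on 0% RPS was lowest both in segments detected and in V segment level, and the part of that level in the number detected was not tested.

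Evenness describes how equally counts are spread over the segments of a locus, with 1 for equal use (Pielou evenness over the 105 Ighv or 98 Igkv segments with a count). Ighv evenness was 0.719, 0.702, 0.737, 0.770 and 0.705 in the 0% RPS mice and 0.786, 0.704, 0.799, 0.761 and 0.704 in the 10% RPS mice. Its mean was 0.726 ± 0.028 on 0% RPS, 0.751 ± 0.024 on 2%, 0.773 ± 0.029 on 5% and 0.751 ± 0.045 on 10%. Scaled instead by the number of segments counted in each mouse, the difference from 0% RPS turned from 0.0243 to -0.0150 at 10% RPS and fell from 0.0469 to 0.0143 at 5%. All mice on 2 and 5% RPS lay above the 0% RPS median of 0.719, as did 3 of 5 mice on 10%, and the ranges overlapped. Igkv evenness was 0.739 ± 0.055, 0.738 ± 0.045, 0.725 ± 0.050 and 0.759 ± 0.071, so its means lay within 1 SD of each other. In numbers of equally used segments, Ighv corresponded to 29.6, 33.1, 36.8 and 33.5 and Igkv to 30.3, 29.96, 28.4 and 33.8 for 0, 2, 5 and 10% RPS. Between 6 and 12 segments held 50% of a mouse's Ighv counts, and between 4 and 14 held 50% of its Igkv counts.

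**Figure D2:**
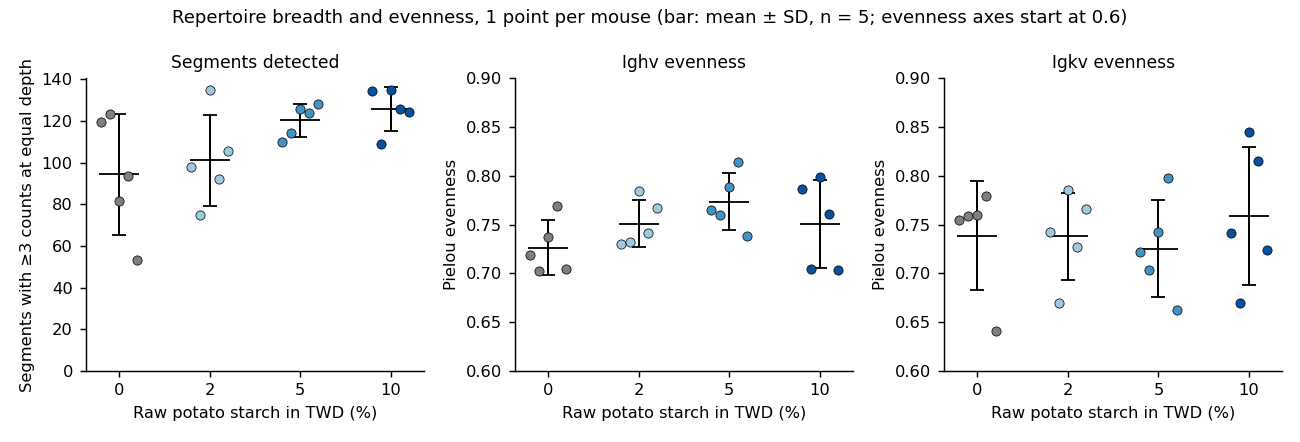
Number of segments with at least 3 counts at equal depth, and Pielou evenness of the Ighv and Igkv segments, with 1 point per mouse and bars for mean ± SD (n = 5) over the percentage of RPS in TWD. The detected number lies between 109 and 135 in all mice on 5 or 10% RPS and between 53.2 and 135 in the others, and evenness overlaps between all diets.

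Leading segments varied between mice, although some led in several. The top Ighv segment of a mouse was 1 of 15 different segments over the 20 mice and held 6.23 to 22% of that mouse's Ighv counts. Ighv1-26 and Ighv1-64 each led in 3 mice and Ighv3-6 in 2, and every other leader led in 1 mouse. Ighv9-3, with the highest mean level of the heavy segments (17.3 CPM per kb of exon), held 22% of Ighv counts in mouse 5 on 10% RPS and 0.63% in the mouse where it was lowest. Ighv1-26 was more evenly shared, being among the top 10 heavy segments in 17 of 20 mice, as was Ighv3-6.

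Igkv10-96 was the leading kappa segment in 8 of 20 mice, and its mean level of 49.4 CPM per kb ranked 1 among all 209 segments. It was at 14.5, 6.33, 0.68, 4.57 and 0.54 CPM in the 0% RPS mice and at 3.50, 0.94, 7.25, 13.1 and 10.8 CPM on 2% RPS. On 5% RPS it was at 20.3, 56.4, 14.1, 7.11 and 95.8 CPM, and on 10% RPS at 34.1, 14.5, 9.42, 5.51 and 35.4 CPM. The 2 highest values were thus both on 5% RPS, and each RPS diet overlapped with 0% RPS. For this segment the log2 fold change was 2.86 ± 0.91 (SE) for 5% RPS and 1.89 ± 0.89 for 10% RPS, neither of which passed edgeR's quasi-likelihood test after Benjamini-Hochberg adjustment (adjusted p = 0.157 and 0.254). The DESeq2 Wald test called it at 5% RPS (adjusted p = 0.0412) and not at 10% RPS (0.175). Its relative Igkv10-94 lay between 0.032 and 4.39 CPM in the same mice. Igkv1-117 led in 2 mice, and every other kappa leader led in 1. Igkv19-93 reached 36.6 CPM in mouse 2 on 10% RPS, which was 27.7% of its Igkv counts, and at most 4.29 CPM in every other mouse. Igkv5-39 held 28.7% of Igkv counts in mouse 2 on 2% RPS, and Igkv14-111 held 20.6% in mouse 3 on 5% RPS.

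**Figure D3:**
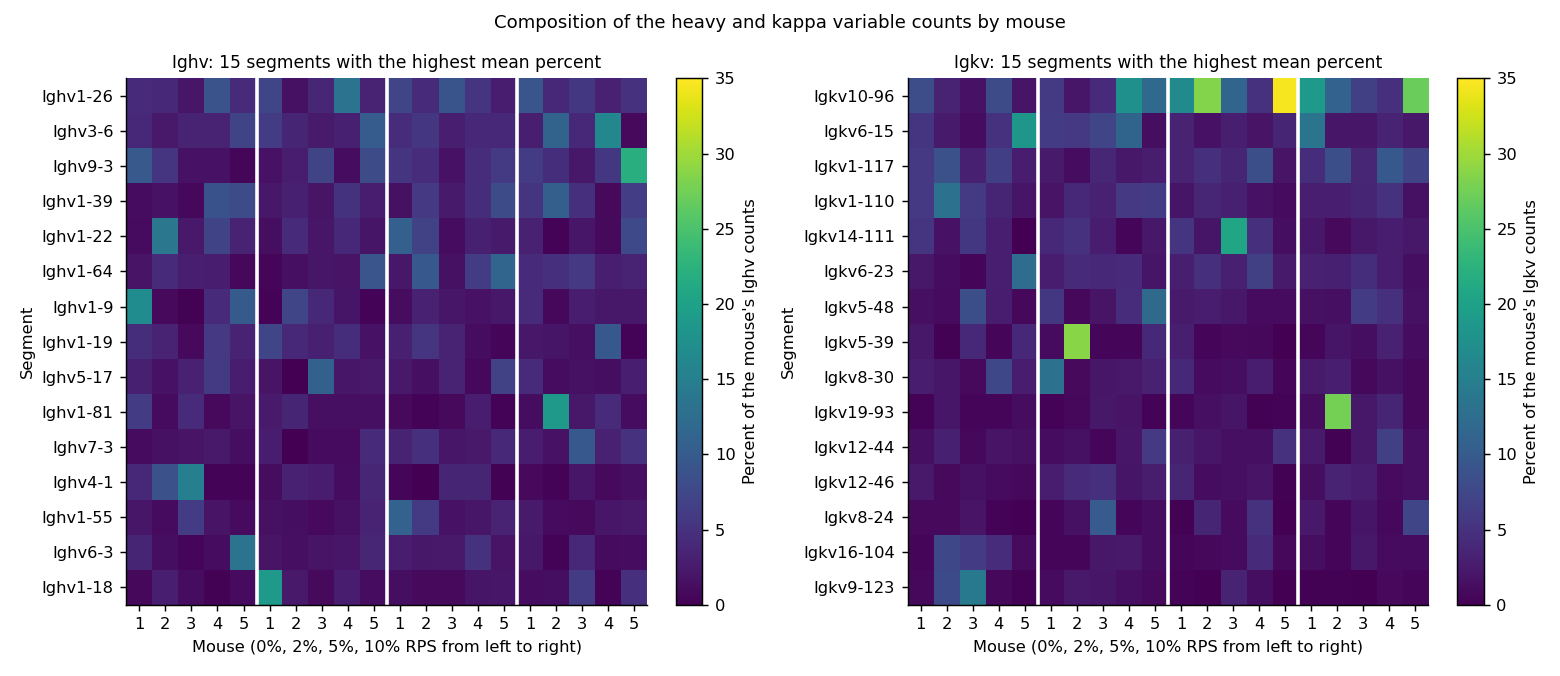
Percent of each mouse's Ighv counts (left) and Igkv counts (right) on the 15 segments with the highest mean percent, with 1 column per mouse, white lines between diets and a colour scale from 0 to 35%. Igkv10-96 reaches 34.6% in mouse 5 on 5% RPS, and most other bright cells are single mice.

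Grouped by family, the 50 Ighv1 segments, the largest heavy chain family of this strain, held 40.5 to 69.9% of Ighv counts, with a mean of 55.9%. In kappa the largest mean shares were those of Igkv6 (13.8%), Igkv4 (12.9%) and Igkv10 (12.7%). The Igkv10 family, mostly Igkv10-96, averaged 6.94 ± 4.0% of Igkv counts on 0% RPS, 8.92 ± 6.32% on 2%, 20.2 ± 11.6% on 5% and 14.8 ± 8.96% on 10%. Of 38 families, by percent of locus counts, 1 lay above every 0% RPS mouse in all 10% RPS mice and none lay below. Of all tested genes, 1.68% lay above and 3.2% below. Those shares are by the CPM of single genes, so the measures are not alike and no conclusion is drawn from the family count. The family that lay above was Ighv8, picked out after its values were seen. Its 8 segments held 0.00 to 1.68% of Ighv counts on 0% RPS and 1.99 to 3.42% on 10%. Ighv15-2 was almost confined to 1 mouse, with 14.0 CPM and 8.52% of Ighv counts in mouse 3 on 2% RPS, at most 0.358 CPM in every other mouse and no count on 10% RPS.

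Of the 3 lambda segments, Iglv1 held a mean of 66.1% of lambda counts. Its level was 22.6, 8.52, 1.01, 3.73 and 0.488 CPM on 0% RPS and 1.41, 1.22, 3.00, 4.24 and 6.42 CPM on 2%. It was 4.16, 7.86, 8.31, 14.1 and 28.4 CPM on 5% RPS and 8.75, 8.80, 9.16, 3.96 and 16 CPM on 10%. Mouse 1 on 0% RPS and mouse 5 on 5% RPS stood highest, and the diets overlapped. Iglv1 did not lead in every mouse. Iglv3 led in mouse 3 on 0% RPS, with 5.48 CPM or 82.0% of lambda counts, and in mouse 3 on 2% RPS, with 4.04 CPM. Iglv2 led in mouse 5 on 0% RPS, with 0.66 CPM against 0.488 for Iglv1, and in mouse 4 on 10% RPS, with 5.65 CPM. Iglv2 and Iglv1 have V exons that are 97.0% identical, with 76.0 and 77.8% of their windows unique, whereas all windows of Iglv3 were unique. None of the 3 passed at any RPS level, with log2 fold changes at 10% RPS of 0.36, 0.19 and -0.19 for Iglv1, Iglv2 and Iglv3.

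Compared with 0% RPS, no segment passed the threshold (adjusted p at most 0.05 and a fold change of at least 1.5) at 2, 5 or 10% RPS in edgeR's quasi-likelihood test with Benjamini-Hochberg adjustment over 15348 genes. At 10% RPS, 0 of 130 tested segments passed in either direction, while 0.547% of all tested genes were called higher and 0.495% lower. Before adjustment, 26 segments (16 Ighv and 10 Igkv) were higher with p under 0.05 and 1 was lower, against 9.74% of all genes higher and 9.75% lower. At 5% RPS again 0 segments passed, with 0.0977% of genes called higher and 0.0977% lower. Before adjustment 30 segments were higher and 1 lower, against 6.74% and 6.54% of all genes. At 2% RPS 0 segments passed and 0.0% of all genes were called higher or lower. Here 8 segments were higher and 5 lower before adjustment, against 2.58% and 3.19% of genes. The DESeq2 Wald test, run as an alternative, called 4 of the 117 segments with an adjusted p higher at 10% RPS (Ighv1-74, Ighv10-3, Ighv5-9-1 and Igkv19-93), where it called 2.46% of all genes with one in either direction. At 5% RPS it called 9 of 170 segments higher, against 1.41% of all genes, at 2% RPS 0 of 200, against 0.027%, and no segment was lower. With single mice left out, edgeR called 1 segment at 10% RPS when control mouse 1 was omitted, 3 when control mouse 2 was, and 2 when mouse 4 on 10% RPS was. Over all genes the same fits called 98, 345 and 302, against 160 with every mouse. At 5% RPS edgeR called 2 segments without mouse 1 of that diet, in a fit that called 114 genes against 30 with every mouse, and the count of segments was 0 for every other omission.

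Counting all 209 members by their mean CPM, with no test, 138 were higher and 65 lower on 10% RPS than on 0% RPS, and 6 had no count in either. On 5% RPS 144 were higher and 56 lower, and on 2% RPS 102 were higher and 97 lower. These comparisons share the same 5 control mice. As a description of the 130 tested segments, which had to pass the filter, the median log2 fold change was 0.86 at 10% RPS, 0.81 at 5% and 0.16 at 2%, beside 0.0041, -0.0018 and 0.0035 over all tested genes. The error of a single segment was large, with a median standard error of 0.905 at 10% RPS against 0.147 over all genes, and the median biological coefficient of variation of the segments was 0.949 against 0.169.

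**Figure D4:**
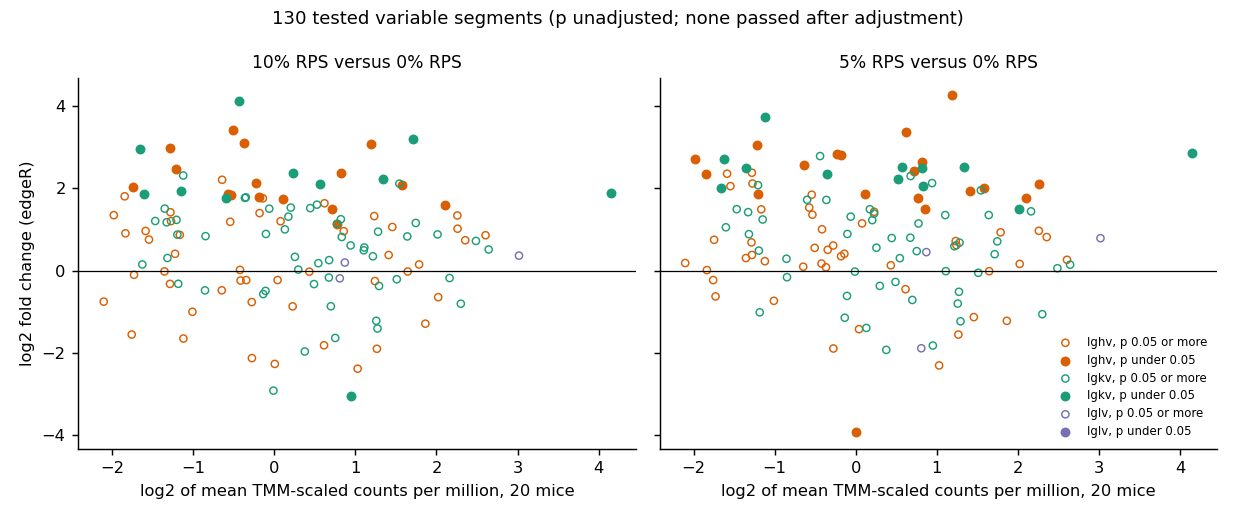
The log2 fold change of each of the 130 tested segments for 10% RPS (left) and 5% RPS (right) against 0% RPS, over log2 of the mean CPM in 20 mice. Filled points have an unadjusted p under 0.05, and 26 of them lie above and 1 below zero at 10% RPS, with 30 above and 1 below at 5% RPS.

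Few segments separated the diets mouse by mouse. Every 10% RPS mouse was above every 0% RPS mouse in 2 of 130 tested segments (1.54%), namely Ighv1-58 and Igkv3-5. The share over all tested genes was 1.68%, so this count is near the background. No segment was below, compared with 3.2% of all tested genes. Igkv4-92, which was not tested and had 29 counts in all, also lay above in every 10% RPS mouse. Every 5% RPS mouse was above in 5 of 130 tested segments (3.85%), compared with 1.53% of all tested genes. These 5, named after their values were seen, were Ighv10-1, Ighv1-53, Ighv1-74, Ighv1-82 and Igkv8-27. Ighv1-82 was at 0.488, 0.518, 0.563, 1.01 and 0.344 CPM on 0% RPS and at 2.05, 2.33, 5.90, 2.83 and 2.87 CPM on 5% RPS. The log2 fold change of 2.43 ± 0.53 (SE) had the lowest adjusted p of any segment at 5% RPS (edgeR's quasi-likelihood test, adjusted p = 0.0535). It passed at 5% RPS in the DESeq2 Wald test (adjusted p = 0.000782), in edgeR with only the 2 diets in the fit (0.0242) and in edgeR without mouse 1 on 5% RPS (0.0415).

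A linear dose trend was passed by 2 segments, both higher with more RPS, whereas 0.378% of all tested genes passed upward and 0.73% downward. Igkv3-5 increased by 0.33 ± 0.08 (SE) and Ighv1-5 by 0.37 ± 0.08 on the log2 scale per percent RPS (edgeR's quasi-likelihood test, adjusted p = 0.0404 for both). Igkv3-5 rests on few reads, with 0, 6, 2, 2 and 3 counts in the 0% RPS mice, 3, 0, 4, 1 and 1 on 2%, 3, 31, 13, 4 and 0 on 5%, and 20, 17, 54, 7 and 12 on 10%. In CPM this was at most 0.24 on 0% RPS and between 0.33 and 1.71 on 10% RPS, without overlap, and the 5% RPS mice lay on both sides. Only 49.8% of its windows were unique, and Igkv3-10, its near-identical relative shown above, was at most 0.478 CPM on 0% RPS and 0.33 CPM on 10% RPS. Ighv1-5 was at 0.98, 0.16, 0.00, 0.13 and 0.09 CPM on 0% RPS, 0.29, 0.00, 0.21, 0.16 and 0.02 on 2%, 0.055, 0.058, 0.13, 0.79 and 0.42 on 5%, and 1.53, 0.65, 3.03, 0.19 and 6.60 on 10%. Mice 3 and 5 on 10% RPS were highest, and the 10 and 0% RPS mice overlapped. The windows of Ighv1-5 were 98.8% unique.

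The trend calls, of segments and of all genes, depended on single mice. With 1 mouse left out at a time, 0 segments passed without mouse 3, 4 or 5 on 0% RPS, mouse 1, 2 or 4 on 2% RPS, mouse 1 on 5% RPS, or mouse 1 or 3 on 10% RPS. The calls over the whole table fell as well, from 170 genes with every mouse to between 0 and 81 in these fits. Ighv1-5 alone passed when mouse 1 on 0% RPS was left out, and Igkv3-5 alone passed with mouse 5 on 10% RPS omitted. Omitting mouse 2 on 0% RPS left 4 segments, and 5 did when mouse 3 on 2% RPS or mouse 4 on 10% RPS was left out, and the calls over all genes then rose to 256, 674 and 563. The DESeq2 Wald test called 5 of 95 segments for the trend, near the 4.84% of all genes. Without the filter on low counts Igkv3-5 passed and Ighv1-5 did not (edgeR's quasi-likelihood test, adjusted p = 0.0509). Over all alternatives that gave one, the adjusted p of edgeR or DESeq2 ran from 0.0192 to 0.169 for Igkv3-5 and from 0.0147 to 0.128 for Ighv1-5, and DESeq2 gave no adjusted p for Igkv3-5. The trend slope stayed positive for both in all of them.

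The segments with the lowest unadjusted p at 10% RPS were Igkv3-5, Ighv10-3, Ighv1-5, Igkv1-88, Ighv7-3 and Ighv5-9-1, with log2 fold changes of 2.97, 2.36, 3.11, 4.13, 2.08 and 2.46 (edgeR's quasi-likelihood test, adjusted p from 0.069 to 0.127). Ighv10-3 was at 0.72, 0.28, 0.26, 0.40 and 0.69 CPM on 0% RPS and at 0.66, 3.72, 3.79, 3.39 and 0.75 CPM on 10% RPS, so that 1 of the 10% RPS mice was within the control range. Igkv1-88 rested largely on 1 mouse, at 7.84 CPM in mouse 1 on 10% RPS and at most 0.885 CPM in the other 10% RPS mice, and its log2 fold change without that mouse was 1.88. The study names 13 segments from the cecum RNA-seq of this experiment, so their direction here is not independent evidence. Of these, 12 passed the filter, and their log2 fold change at 10% RPS was above 0 for 11 and below 0 for Ighv1-85 (-2.27 ± 1.23), which was at 12.9 CPM in mouse 1 on 0% RPS and at most 1.55 CPM in every other mouse. The largest was that of Ighv1-74 (3.08 ± 1.11), at 0.586, 0.239, 0.150, 0.269 and 0.00 CPM on 0% RPS and at 4.98, 0.361, 0.948, 0.659 and 3.68 CPM on 10%. Here the adjusted p of the 12 ran from 0.0792 to 0.48 in edgeR's quasi-likelihood test. The study, which used DESeq2, also listed Ighv1-85 as lower. It listed the other named segments as higher at 10% RPS with an adjusted p under 0.05.

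The constant region genes are spliced to the V segments in the mature RNA and so give another view of the same transcripts. Igha, the constant region of IgA, was the most abundant, at 191 to 1070 CPM on 0% RPS, 378 to 812 on 2%, 630.5 to 1382 on 5% and 653 to 805 on 10%. Mouse 5 on 5% RPS was highest and mouse 5 on 0% RPS lowest in V segments, in Igha and in Jchain, which links IgA into dimers (528 and 51.0 CPM). Igkc, the kappa constant region, had a log2 fold change of 0.38 at 10% RPS and Igha of 0.29 (edgeR's quasi-likelihood test, adjusted p = 0.645 and 0.693). These were the lowest among the 12 constant region genes, whose median was 1.28. Ighm and Ighd, of IgM and IgD, had 1.53 and 1.89 and did not pass either (same test, adjusted p = 0.432 and 0.478). Of the 12 constant region genes, 1 passed at 10% RPS, where 0.547% of all tested genes were called higher. This was Ighg1, of IgG1, which lay between 1.26 and 10.7 CPM in the 0% RPS mice and between 17.4 and 49.3 CPM in the 10% RPS mice, with a log2 fold change of 2.66 (edgeR's quasi-likelihood test, adjusted p = 0.0405). The ratio of Ighv counts to heavy constant counts was 11 ± 2.93, 11.2 ± 2.60, 12.9 ± 2.07 and 11.5 ± 1.40 per 100 for 0, 2, 5 and 10% RPS. That of Igkv to Igkc was 23.8 ± 6.97, 23.5 ± 3.55, 31.0 ± 6.75 and 29.6 ± 4.22 per 100, and both overlapped between diets.

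Genes of resting B cells varied over a wider range and in a different order of mice. The sum of 11 B cell markers was 50.6, 297, 13.6, 30.9 and 13.3 CPM in the 0% RPS mice and 318, 24.6, 410, 348 and 395 CPM in the 10% RPS mice. It lay between 10.2 and 459 CPM on 2% RPS and between 16.1 and 207 CPM on 5%, so the diets overlapped. None of the 11 passed edgeR's quasi-likelihood test at 10% RPS, and none had an unadjusted p under 0.05 there. Their median log2 fold change at 10% RPS was 2.08. For the linear trend none of them passed. Before adjustment 3 were higher for it with p under 0.05 in the same test, against 1438 of 15348 tested genes. Mouse 5 on 5% RPS, highest in V segments, had 18 CPM of these markers, and mouse 2 on 10% RPS, where Igkv19-93 took 27.7% of kappa counts, had 24.6 CPM. The part of follicle B cells in the V segment results was not tested.

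**Figure D5:**
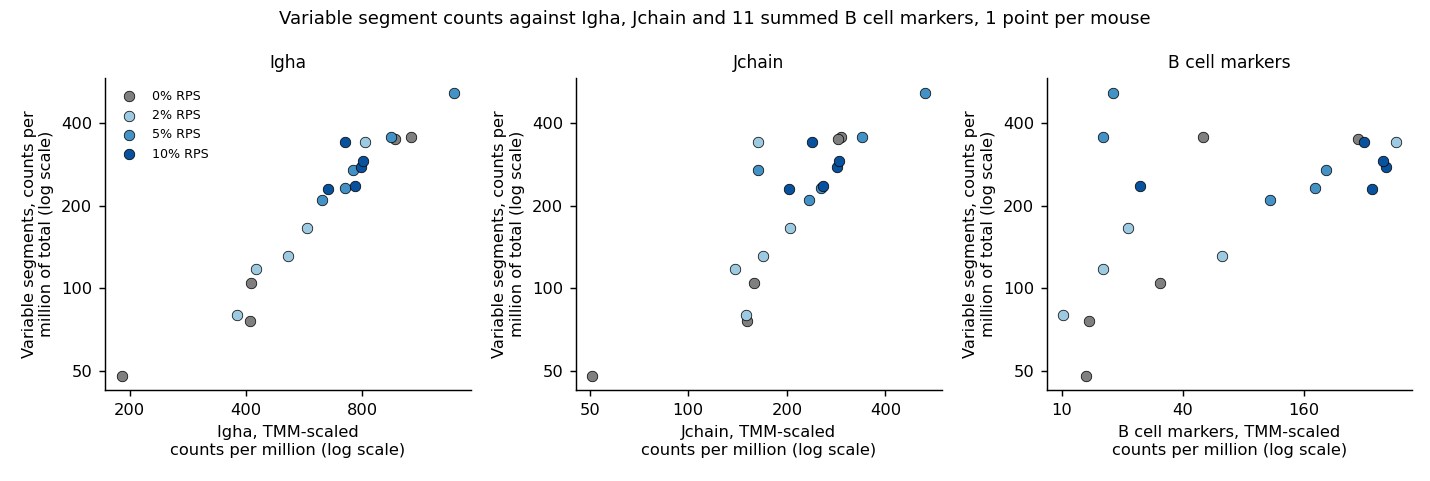
Variable segment CPM per total count over the TMM-scaled CPM of Igha, of Jchain and of 11 summed B cell markers on log scales, with 1 point per mouse coloured by diet. Mouse 5 on 0% RPS (47.7 CPM of V segments) and mouse 5 on 5% RPS (516 CPM) are the lowest and highest in Igha and Jchain too, while both have a low sum of B cell markers, at 13.3 and 18 CPM.

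Among 12 plasma cell markers, 11 were tested and none passed at 10% RPS. Their median log2 fold change was 0.44. Before adjustment 3 were higher with p under 0.05, namely Irf4 (log2 fold change 1.38), Cd38 (0.81) and Tent5c (0.39), and 1 was lower. Of all tested genes, 9.74% were higher and 9.75% lower by this rule. The lower marker was Sdc1, a surface proteoglycan of plasma cells and epithelium. It missed the fold threshold with a log2 fold change of -0.55 (edgeR's quasi-likelihood test, adjusted p = 0.0376). Mzb1, a chaperone of antibody assembly, was at 0.00 to 0.47 CPM in all mice. Of 20 genes of IgA induction, transport and homing, 14 were tested and none passed. Pigr, the receptor that carries IgA across the epithelium, lay between 2321 and 2556 CPM in the 0% RPS mice and between 2435 and 3457 CPM in the 10% RPS mice. Tnfsf13 and Ccr10 are listed at 0 in every mouse. The recombination genes Rag2 and Dntt were at most 0.0375 and 0.188 CPM, and Rag1 was not analysed here. None of the 7 germinal centre, 7 T cell and 7 epithelial markers passed at 10% RPS. Before adjustment 3 of the epithelial markers (Cdh1, Muc2 and Car1) were lower with p under 0.05, against 9.75% of all tested genes. Of 5 smooth muscle markers, 1 passed at 10% RPS, where 0.547% of all tested genes were called higher. This was Actg2, with a log2 fold change of 1.28 (edgeR's quasi-likelihood test, adjusted p = 0.0358). The summed smooth muscle level ranged from 2257 to 5292 CPM without RPS and from 3685 to 6085 CPM with 10%. At 5% RPS, where the summed V level was highest, all 5 smooth muscle markers were higher before adjustment with p under 0.05 (median log2 fold change 0.73). Of all tested genes, 6.74% were higher by this rule at 5% RPS. Actg2 passed there (edgeR's quasi-likelihood test, adjusted p = 0.0424), where 0.0977% of all tested genes were called higher. The part of tissue composition in the V segment shares was not tested.

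Pooled over the diets, pairs of mice shared about as much of their repertoire on the same diet as on different diets. Overlap was taken as the sum of the smaller of the 2 percentages over all segments of a locus. For Ighv the median was 50.8% over 40 pairs of mice on the same diet and 49.8% over 150 pairs on different diets, and for Igkv it was 51.4 and 50.1%. Within diets, Ighv overlap was 47.7% on 0% RPS, 45.7% on 2%, 57.0% on 5% and 55.2% on 10%. For Igkv it was 45.8, 48.8, 50.9 and 54.4%. Between 0% RPS and 2, 5 and 10% RPS, Ighv overlap was 45.8, 49.5 and 47.8%, and between 5 and 10% RPS it was 56.8%. The same medians for Igkv were 46.9, 44.2, 49.4 and 54.8%. Mice were not brought to equal depth for this, and the part of V counts in the overlap was not tested. Pairs share mice, so these medians are a description. Position in the locus was compared by the share of counts on the segments nearest to the joining segments. The 53 Ighv segments nearest to the joining segments held 47.1 ± 9.61, 42.1 ± 13, 42.5 ± 4.46 and 46.3 ± 6.31% of Ighv counts on 0, 2, 5 and 10% RPS. The 49 nearest Igkv segments held 45.5 ± 13.6, 55.0 ± 6.69, 38.7 ± 4.61 and 43.8 ± 8.08%, with overlap between 0% RPS and each RPS diet. On 2% RPS this Igkv share was between 43.8 and 60.6%, and on 5% RPS between 34.6 and 44.7%.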

How the data were processed

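Cecum RNA of 20 mice was sequenced as single-end reads of 50 bases from stranded mRNA libraries. The authors removed low-quality reads, mapped to GRCm39 with CLC Genomics Workbench and deposited raw counts per gene. The annotation release, the strand setting and the treatment of reads that match several genes are not given in the sources used here. Reads shared by similar V segments may therefore be split or lost.

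Of 19887 genes, 15348 passed filterByExpr (minimum count 10, minimum total 15). All 20 mice entered 1 edgeR 4.0.16 quasi-likelihood model (robust, TMM, R 4.3.3), with Benjamini-Hochberg adjustment over all tested genes. The threshold was an adjusted p of at most 0.05 and a fold change of at least 1.5, with no fold threshold for the linear trend. DESeq2 1.42.0 was an alternative. The fit was tested on simulated data. Levels are counts per 1000000 (CPM), taken over the mouse's total count for the summed V segments, the summed loci and the limit of 3 counts, and over the library size scaled by TMM for single genes and for sums of marker genes. Total counts ranged from 14967798 to 42687283. Sequences were read from GRCm39 with pysam 0.24.0. The labels give no shared replicate numbers across diets.

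Segments named were the 6 highest Ighv and Igkv, all Iglv, the highest of each mouse, those past the threshold, the 6 with the lowest p at 10% RPS and those the study names. The members and all gene lists were chosen with earlier results of these data known. Alternatives were normalization, tool, filter, samples in the fit, dose scale, denominators, segments summed and each mouse left out. A gene of the B cell list is not reported here.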

Additional observations from a re-analysis of the deposited data

Results flagged for a closer look

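In 88 groups of 5 mice examined, 11 single values lay far from the other 4 mice of their diet by Dixon's test, which flags about 1 in 20 groups by chance. In mouse 5 on 10% RPS, the summed lambda segments were at 26.5 CPM of the total count (nearest mouse 13.2) and 16.1% of light chain V counts (nearest 8.38%), and on the TMM-scaled CPM used for single segments Iglv3 was at 6.71 CPM (nearest 1.96) and Ighv9-3 at 26.1 CPM (nearest 7.67). In mouse 2 on 10% RPS Igkv19-93 was at 36.6 CPM (nearest 4.29), and in mouse 2 on 0% RPS the same segment was at 3.90 CPM (nearest 0.553). Mouse 5 on 0% RPS had an Igkv evenness of 0.641 (nearest 0.755), and its 985 Igkv counts were the fewest of the 20 mice.

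Both segments past the trend test had such a value, Igkv3-5 with 1.71 CPM in mouse 3 on 10% RPS (nearest 0.697) and Ighv1-5 with 0.976 CPM in mouse 1 on 0% RPS (nearest 0.159). Ighv1-26 was at 7.86 CPM in mouse 3 on 5% RPS (nearest 6.35), in a diet whose other mice lay close together. Iglv3 was at 4.04 CPM in mouse 3 on 2% RPS (nearest 1.18).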

How the results depend on the processing

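Over 27 results and 429 alternatives, 19 alternatives in 6 results took the other sign, all in untested differences of summed share, detection or evenness, and 0 in the fold changes of single segments. With DESeq2, 4 segments passed at 10% RPS, 9 at 5% RPS and 5 for the trend, while the calls over all genes rose to 2.46, 1.41 and 4.84% of those with an adjusted p. With only the 2 diets in the fit 1 passed at 5% RPS (65 of all genes). Without the filter on low counts 4 passed the trend, namely Ighv12-3, Ighv2-4, Igkv3-5 and Igkv4-92, and Ighv1-5 did not. Leaving out 1 mouse gave 0 to 3 segments at 10% RPS, 0 to 2 at 5%, 0 to 0 at 2% and 0 to 5 for the trend. The cause of these differences was not tested. Scaled by the segments counted in that mouse, the Ighv evenness difference was -0.0150 at 10% RPS and 0.0143 at 5% RPS, against 0.0243 and 0.0469. Leaving out 1 mouse moved the log2 difference in summed share from 0.62 to 1.34 at 10% RPS, 0.75 to 1.48 at 5% and -0.27 to 0.46 at 2%, where it was below 0 without mouse 3 or 5 on 0% RPS or mouse 3 on 2% RPS. It moved the difference in segments detected from 21.1 to 38.7, 15.8 to 33.4 and -3.54 to 14.0, below 0 at 2% RPS without mouse 5 on 0% RPS or mouse 3 on 2% RPS. Igkv evenness differences took both signs, from -0.0105 to 0.0528 at 10% RPS and -0.0389 to 0.0376 at 5%. No paired analysis was possible because the labels give no shared replicate numbers across diets. At the depth of these libraries 79 segments fell below the filter and were not tested.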
